A study of Homo sapiens with 4 samples.

Results

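The Arp2/3 complex, cofilin and profilin together build and turn over branched actin networks, and 10 of their genes were examined in HCT116 cells, a human colorectal carcinoma cell line. The genes were chosen by symbol and not by their values, though earlier results of these data were known. They were the Arp2/3 subunits ARPC1A, ARPC1B, ARPC2, ARPC3, ARPC4, ARPC5, ACTR2 and ACTR3, together with CFL1 and PFN1. All 10 were present among the 19974 genes of the deposited tables, and all 10 passed the filter on low values (at least 1 FPKM in at least 2 libraries) that left 11222 genes to test. The values were read as FPKM, a fragment count scaled by transcript length and sequencing depth, though no source used here names the unit. On that reading, levels of different genes may be set side by side. A limit is that differences between replicates moved with transcript length.

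Cells were transfected for 36 h with 100 nM of a non-targeting siRNA (si-NC) or of siRNA against the long non-coding RNA LINC00152 (si-152), with 2 biological replicates per group. Both groups are the same transfected line and differ in the siRNA, and no untransfected cells were compared. LINC00152 itself was not analysed here. FPKM values summed to between 424754 and 534311 per library, with 14589 to 14686 genes above 0, and their depth in reads could not be given. Of 8 epithelial and colon markers, 6 were at 1 FPKM or more in every library. CDX1 was listed at 0 throughout, and VIL1 was at most 0.0567 FPKM in any library. The 8 summed to 3026 to 3529 FPKM in si-NC and 2386 to 2972 FPKM in si-152, without overlap, and their part in the results was not tested. Leukocyte markers summed to at most 0.287 FPKM and endothelial markers to at most 0.0999 FPKM in any library. Fibroblast markers summed to 7.03 to 7.98 FPKM in si-NC and 7.13 to 7.79 FPKM in si-152.

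The Arp2/3 complex holds the actin-related proteins ARP2 (ACTR2) and ARP3 (ACTR3), which act as the seed of a new filament, and the ARPC subunits, which hold that seed against the side of an existing filament. Proteins of the WASP and WAVE families switch the complex on, often downstream of the GTPases RAC1 and CDC42. Cofilin (CFL1) severs ageing filaments, and profilin (PFN1) loads actin monomers with ATP and feeds them to growing ends. Migrating cells push their leading edge forward with this machinery.

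The promoters were compared for shared motifs. The 250 bases before the RefSeq start site (GRCh38.p14) were found for 9 of the 10 genes, all but ARPC1B. Their GC content ran from 57.6% to 72.0%, against a median of 58.0% over 27305 promoters of that length. A GC box, GGGCGG on either strand, was found in 7 of 9, against 42.3% of all promoters, with 6 matches in ARPC4 and none in ARPC1A or ACTR3. None of the 9 held the TATA box TATAAA, found in 11.1% of all promoters, or a CArG box, the binding motif of serum response factor, found in 1.14%. The TEAD core GGAATG was found in PFN1 alone, 100 bases before the start site, against 11.9% of all promoters. The CCAAT box, CCAAT, was in 4 of 9 (33.0% of all promoters) and the ETS core, CCGGAA, in 5 of 9 (14.8%), both strands being read. These letters are a description of the windows and not of bound sites. Shown here are the GC boxes, in capitals, of the promoters whose 30-base window touched no annotated exon, ARPC2 at chr2:218216995-218217024 on the plus strand and ARPC5 at chr1:183635939-183635968 on the minus strand.
ARPC2: aagtagacggtgGGGCGGcggcatcacaca
ARPC5: cttcgcccagccCCGCCCcttgcctgcgga

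CFL1 and PFN1 stood far above the complex. PFN1 (chr17:4945652-4949061, minus strand; GENCODE v29 coordinates here and for all genes) was at 611 and 703 FPKM after si-NC and at 522 and 698 FPKM after si-152. CFL1 (chr11:65823022-65862026, minus strand) was at 457 and 520 FPKM after si-NC and at 461 and 546 FPKM after si-152. They were above 99.06% and 98.82% of tested genes.

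Among the subunits, ARPC1B, a WD-repeat subunit, was the highest in every library and ACTR3 the lowest. ARPC1B (chr7:99374249-99394816, plus strand) was at 209 and 244 FPKM after si-NC and at 176 and 225 FPKM after si-152. ACTR3 (chr2:113889960-113962596, plus strand) was at 36.5 and 26.4 FPKM after si-NC and at 34.04 and 31.83 FPKM after si-152. Both si-152 values of ACTR3 lay between the si-NC values, and the ARPC1B groups overlapped as well.

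ARPC2 and ARPC3 followed ARPC1B. ARPC2 (chr2:218217094-218254356, plus strand), part of the core that contacts the mother filament, was at 201 and 196 FPKM after si-NC and at 162 and 199 FPKM after si-152. ARPC3 (chr12:110434825-110450422, minus strand) was at 172 and 219 FPKM after si-NC and at 149 and 205 FPKM after si-152. These neighbours changed order between replicates 1 and 2 and did not differ beyond their spread. ARPC1A (chr7:99325910-99366262, plus strand), the alternative to ARPC1B, was at 126 and 131 FPKM after si-NC and at 112 and 125 FPKM after si-152. It lies 7986 bases upstream of ARPC1B, and it was the only one of the 10 genes whose groups did not overlap.

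The other subunits were lower. ARPC4 (chr3:9792495-9807726, plus strand), the partner of ARPC2 in the core, was at 71.6 and 76.0 FPKM after si-NC and at 62.1 and 78.6 FPKM after si-152. ARPC5 (chr1:183620846-183635757, minus strand) was at 67.5 and 78.6 FPKM after si-NC and at 61.4 and 74.9 FPKM after si-152. ARPC4 and ARPC5 also exchanged places, in si-NC replicate 2. ACTR2 (chr2:65227753-65271253, plus strand) was at 61.8 and 45.8 FPKM after si-NC and at 51.5 and 47.3 FPKM after si-152, with both si-152 values inside the si-NC range.

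**Figure D1:**
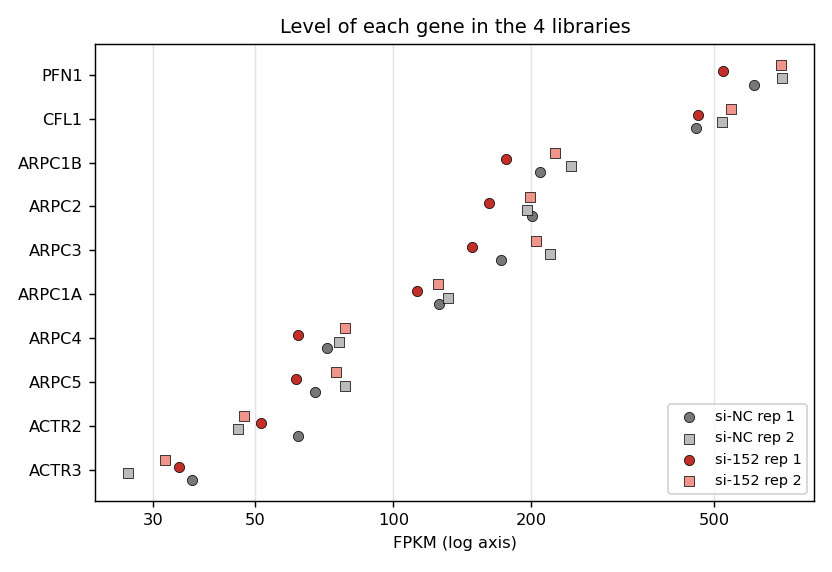
FPKM of the 10 genes on a log axis, 1 point per library, with si-NC in grey, si-152 in red, circles for replicate 1 and squares for replicate 2. PFN1 and CFL1 lie highest and ACTR3 lowest, and the groups are apart for ARPC1A alone.

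Each complex holds a single copy of every subunit, but mRNA levels differed between subunits. With paralogs added, the ARPC1 position (ARPC1A + ARPC1B) took 31.99% to 33.38% of the summed FPKM of the complex and the ARP3 position (ACTR3 + ACTR3B) took 3.23% to 5.09%. The highest position was 6.75 and 10.3 times the lowest in si-NC, and 6.36 and 7.46 times in si-152. The 8 subunits alone summed to 946 and 1017 FPKM in si-NC and to 807 and 986 FPKM in si-152, or 0.190% to 0.204% of each library's sum.

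The comparison of si-152 with si-NC asked whether knockdown of LINC00152 altered these transcripts. None of the 10 genes passed the test. Of the 11222 tested genes, 4.38% had an unadjusted p under 0.05 by limma's moderated test on log2(FPKM + 1), and 0 of the 10 did. After Benjamini-Hochberg adjustment over all genes, 0.0178% of tested genes (2 genes) passed and 0 of the 10 did, each with an adjusted p of 1.00. The subunit differences (si-152 minus si-NC, log2 scale) ran from -0.18 (SE 0.21) for ARPC1B to 0.08 (SE 0.19) for ACTR3. Over the 8 subunits the 95% intervals reached from -0.66 to 0.51. CFL1 differed by 0.04 (SE 0.24, 95% interval -0.49 to 0.57), and PFN1 by -0.12 (SE 0.26, 95% interval -0.71 to 0.47). In bulk RNA, fewer cells of a kind and less RNA per cell cannot be told apart.

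Of the 10 genes, 1 (ARPC1A) had both si-152 libraries below both si-NC libraries, against 13.9% of tested genes, and 0 had both above, against 16.5%. ARPC1A differed by -0.12 (SE 0.18, 95% interval -0.51 to 0.28; limma unadjusted p = 0.527).

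Between same-numbered replicates, 5 genes were lower in si-152 in both pairs (ARPC1A, ARPC1B, ARPC3, ARPC5 and PFN1), against 27.3% of tested genes. CFL1 was the 1 gene higher in both, by 0.01 and 0.07, against 35.6% of tested genes. These counts changed with scaling. With median-ratio size factors 8 of the 10 were lower in both pairs (ARPC2, ARPC4 and ACTR2 in addition), against 32.4% of tested genes, and 0 were higher in both, against 33.8%, CFL1 being at 0.05 and -0.01. With quantile normalization 5 were lower in both, with ARPC4 in place of PFN1, against 30.1% of tested genes. CFL1 was then the 1 gene higher in both, by 0.17 in each pair, against 34.6% of tested genes. In the unscaled values, ARPC2 was -0.31 in the replicate 1 pair and 0.02 in the replicate 2 pair, and ACTR3 was -0.10 and 0.26. PFN1, at -0.23 and -0.01, followed the same order. The median of the 8 subunits was -0.21 in the replicate 1 pair and -0.02 in the replicate 2 pair, beside -0.03 and 0.07 for all tested genes. With size factors the subunit median was -0.17 and -0.10, and ARPC1B was at -0.21 and -0.20, so the contrast between the pairs was smaller.

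**Figure D2:**
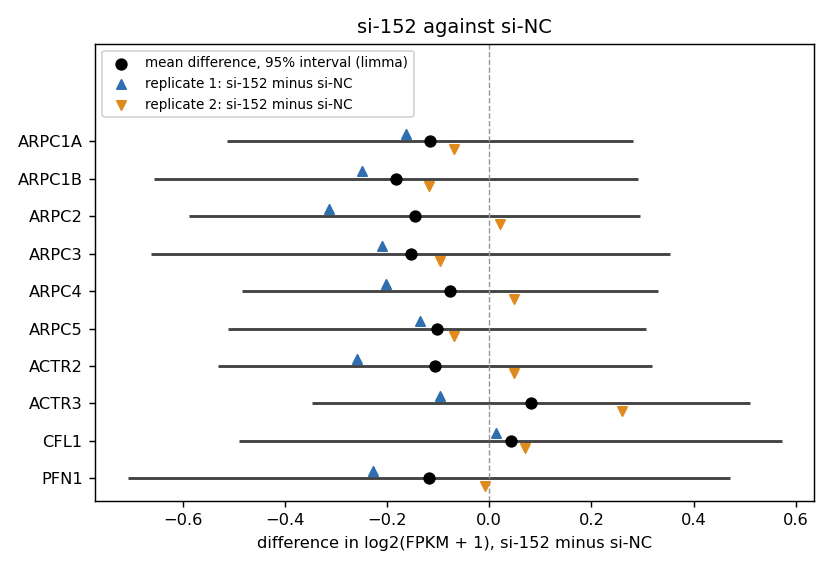
Difference in log2(FPKM + 1), si-152 minus si-NC, for the 10 genes. Black points are mean differences with limma 95% intervals, and triangles are the same-numbered replicate pairs; every interval covers 0, and the replicate 1 value lies below the replicate 2 value for each gene in these unscaled values, which does not hold with size factors for ARPC1A, ARPC3, ARPC5 and CFL1 or with quantile normalization for ARPC1A, ARPC5 and CFL1.

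The median difference of the 8 subunits was -0.11, against 0.02 for all tested genes. For the 653 tested genes with a mean of at least 100 FPKM it was also -0.11, and for 77 ribosomal protein genes it was -0.19. ARPC4, ARPC5, ACTR2 and ACTR3, at means of 72.1, 70.6, 51.6 and 32.2 FPKM, lie outside that class of 653. Ribosomal protein genes took 24.0% to 29.4% of each library's sum, lower in replicate 1 of both groups.

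Within each group, the difference between replicates moved with transcript length. Of the 10 genes, 7 were higher in replicate 2 than in replicate 1 of both groups, as were 29.4% of tested genes. ACTR2 and ACTR3, with annotated transcripts of 3861 and 6718 bases, were lower in replicate 2 of both groups, as were 44.2% of tested genes. ARPC3 and PFN1 have transcripts of 1014 and 1291 bases and were higher by 0.35 and 0.20 in si-NC and by 0.46 and 0.42 in si-152. ARPC5, at 7209 bases, was an exception and was higher by 0.22 and 0.28. ARPC2, at 1605 bases, was the remaining gene, at -0.04 in si-NC and 0.30 in si-152. Each length is that of a single annotated transcript of the gene, the longest where annotation rank and coding length tied. Which transcript was expressed was not determined, so calling ARPC5 an exception rests on its annotated length. Over 10776 genes with a length, the Spearman correlation of replicate 2 minus replicate 1 with length was -0.58 in si-NC and -0.61 in si-152, across genes that share their libraries. The si-152 minus si-NC difference correlated with length at 0.28. Its median went from -0.08 among transcripts of 177 to 2005 bases to 0.08 among those of 4789 to 34526 bases. Of the 10 genes, ARPC1A, ARPC1B, ARPC2, ARPC3, CFL1 and PFN1 fall among the shortest transcripts of this division into 4 equal parts. The part of length in the differences was not tested.

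**Figure D3:**
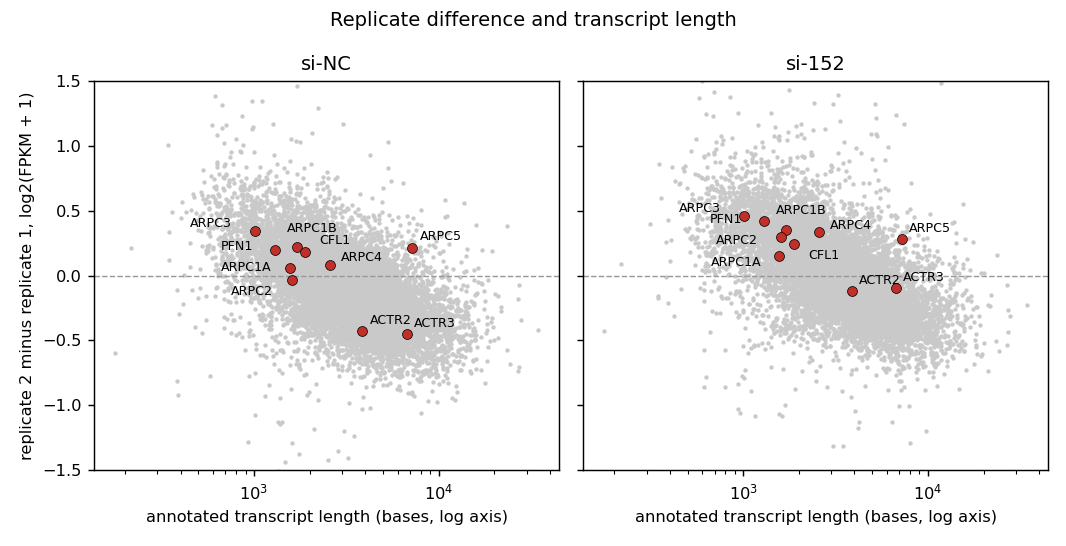
Replicate 2 minus replicate 1 in log2(FPKM + 1) against annotated transcript length (log axis), in si-NC and si-152. Grey points are the 10776 tested genes with a length, of which 32 and 39 lie outside the axis, and red points are the 10 genes; ACTR2 and ACTR3 lie below 0 in both groups and ARPC3 and PFN1 above.

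Shares among paralogs within a library do not depend on its scaling by a single factor. Where paralogs differ in length, as ACTR3 (6718 bases) and ACTR3B (2216 bases) do, replicate differences that move with length do not cancel. The part of length in the shares was not tested. Cofilin 1 made up 72.2% and 75.9% of the summed FPKM of CFL1, CFL2 and DSTN (destrin, the ADF protein) in si-NC, and 77.3% and 79.5% in si-152. The groups did not overlap, at 74.0% ± 2.62 against 78.4% ± 1.55 (SD, n = 2 each), and the exact two-sided permutation test gave p = 0.333, the smallest value that 2 against 2 libraries allow. DSTN moved the other way within the sum, at 157 and 151 FPKM after si-NC and at 118 and 127 FPKM after si-152. Its difference was -0.33 (SE 0.18; limma unadjusted p = 0.096), which did not pass. Blocked on replicate number, DSTN had an unadjusted limma p of 0.018 and an adjusted p of 0.20.

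The other shares moved less. ARPC1B was 62.4% and 65.0% of the ARPC1 pair in si-NC and 61.0% and 64.2% in si-152 (exact permutation p = 0.667). ARPC5 was 44.07% and 44.66% of ARPC5 and ARPC5L in si-NC and 46.13% and 44.69% in si-152 (exact permutation p = 0.333). Its groups did not overlap either, though 44.66% and 44.69% lay close. The paralog ARPC5L was the more abundant in all 4 libraries. ACTR3 was 73.5% and 72.6% of ACTR3 and ACTR3B in si-NC and 75.1% and 67.9% in si-152 (exact permutation p = 1.0). PFN1 was 86.9% and 87.3% of PFN1 and PFN2 in si-NC and 84.7% and 88.2% in si-152 (exact permutation p = 1.0).

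**Figure D4:**
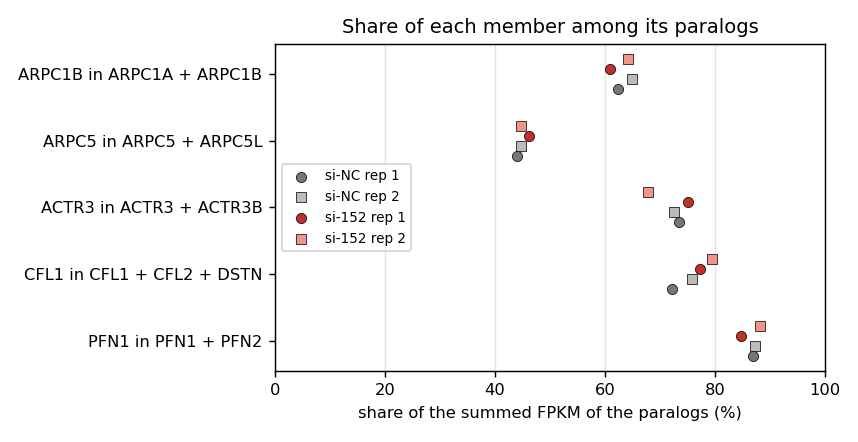
Share (%) of ARPC1B, ARPC5, ACTR3, CFL1 and PFN1 in the summed FPKM of their paralogs, 1 point per library. The CFL1 share is 72.2% and 75.9% in si-NC and 77.3% and 79.5% in si-152. The ARPC5 groups are also apart, narrowly, at up to 44.66% in si-NC and from 44.69% in si-152. The groups of ARPC1B, ACTR3 and PFN1 overlap.

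Some reads of these genes could belong to near-identical transcripts. An aligned stretch of at least 95% identity with transcripts of another gene covered 76.6% of ARPC1A and 75.8% of ARPC1B, both within the read-through gene AC004922.1. It covered 53.0% of ARPC3, 30.7% of ACTR2 and 32.7% of PFN1, each with at least 1 pseudogene among the matches. ARPC4 shared 21.1% with the read-through ARPC4-TTLL3, which the tables list separately. ARPC2, ACTR3 and CFL1 had no such stretch.

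Of the activators of the complex, 2 passed the unadjusted threshold, both higher in si-152. Of 31 genes listed as WASP and WAVE activators, 26 were tested, 25 were above 0 and WASF1 was at -0.07, with a median of 0.16 against 0.02 for all tested genes, of which 6085 of 11222 were above 0. CTTN (cortactin, which stabilizes branches) was at 42.2 and 37.1 FPKM after si-NC and at 55.6 and 56.5 FPKM after si-152, a difference of 0.49 (SE 0.16; limma unadjusted p = 0.015, adjusted p = 0.93). RAC1, a GTPase that signals to WAVE, was at 123 and 122 FPKM after si-NC and at 166 and 165 FPKM after si-152, a difference of 0.43 (SE 0.18; limma unadjusted p = 0.035, adjusted p = 1.00). Both si-152 libraries lay above both si-NC libraries for each, as for 9 of the 26 and for 16.5% of all tested genes. CTTN and RAC1 were the 2 of 26 with an unadjusted p under 0.05, beside 4.38% of all tested genes, and both missed the adjusted threshold. The 20 activators with an annotated length had a median of 4220 bases, against 3106 for all tested genes, and the median of the 26 in replicate 2 minus replicate 1 was -0.19 in si-NC and -0.11 in si-152.

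Inhibitors and debranching factors were mixed. Of 8 tested of 11, 3 were above and 5 below 0, with a median of -0.07 and none with an unadjusted p under 0.05. GMFB, a debranching factor, was lowest at -0.40 (SE 0.20), and CORO2B, a coronin near 1 FPKM, highest at 0.21 (SE 0.20). CORO2B was at 0.774 and 0.715 FPKM after si-NC and at 1.01 and 1.02 FPKM after si-152. It passed the filter only through si-152, so the filter favoured its place among the 3 above 0. CORO1B, the most abundant coronin or debranching gene of the list, differed by -0.16 (SE 0.17).

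Among 20 cofilin family members and regulators, 13 were above and 7 below 0, with a median of 0.09. TESK1, a kinase that phosphorylates cofilin, was at 15.1 and 12.9 FPKM after si-NC and at 19.6 and 21.0 FPKM after si-152, a difference of 0.51 (SE 0.17; limma unadjusted p = 0.015, adjusted p = 0.95). WDR1, which helps cofilin take filaments apart, was at 54.9 and 62.0 FPKM after si-NC and at 77.6 and 78.4 FPKM after si-152, a difference of 0.41 (SE 0.17; limma unadjusted p = 0.034, adjusted p = 1.00). Both si-152 values lay above both si-NC values for each gene, as for 5 of the 20 and for 16.5% of all tested genes. TESK1 and WDR1 were the 2 of 20 with an unadjusted p under 0.05, beside 4.38% of all tested genes. DSTN was the lowest of the list, and CFL2 differed by -0.08 (SE 0.20).

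Profilins, formins and Ena/VASP proteins, which elongate unbranched filaments, were balanced. Of 16 tested of 21, 8 were above and 8 below 0, with a median of -0.02. PFN4, a minor profilin at 1.15 and 1.18 FPKM after si-NC and at 0.168 and 0.702 FPKM after si-152, differed by -0.62 (SE 0.23; limma unadjusted p = 0.025, adjusted p = 1.00). On the log2 scale with a pseudocount of 0.1 the PFN4 difference was -1.45, and leaving out a library it ranged from -0.89 to -0.35. PFN4 passed the filter only through its si-NC values, so the filter favoured a fall and its p-value lends no support. With at least 1 FPKM in every library PFN4 was left out, and 0 genes of the list had an unadjusted limma p under 0.05. PFN2 differed by -0.05 (SE 0.17), FMNL2, a formin, by 0.24 (SE 0.24), and TMSB10, a monomer-binding thymosin and the most abundant gene of the list, by 0.01 (SE 0.43).

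CAPG, a gelsolin-like protein that caps filament ends, had the largest difference among the 81 tested genes of the lists at a pseudocount of 1 with all 4 libraries. With a pseudocount of 0.1 PFN4 exceeded it (-1.45 against -0.92), as TMOD3 did without si-NC replicate 2 (-0.94 against -0.72) and without si-152 replicate 1 (-0.85 against -0.80). CAPG was at 81.4 and 106 FPKM after si-NC and at 45.3 and 53.0 FPKM after si-152. It differed by -0.91 (SE 0.19; limma unadjusted p = 0.00088, adjusted p = 0.43), by -0.83 and -0.99 in the same-numbered pairs, without overlap of the groups. Its ratio to CAPZB, a subunit of capping protein, was 1.23 and 1.45 in si-NC and 0.737 and 0.778 in si-152, and CAPZB itself differed by -0.11 (SE 0.17). TMOD3, a pointed-end cap, was at 24.0 and 15.1 FPKM after si-NC and at 14.2 and 10.1 FPKM after si-152, so both si-152 values lay below both si-NC values. It differed by -0.62 (SE 0.24; limma unadjusted p = 0.030, adjusted p = 1.00). Of 9 tested of 12 capping and severing genes, 8 were below 0 and CAPZA2 was at 0.01, with a median of -0.14. In 4 of the 9 both si-152 libraries lay below both si-NC libraries, against 13.9% of all tested genes. Below 0 were 5137 of all 11222 tested genes, and 482 of the 653 with a mean of at least 100 FPKM. None of the capping and severing genes reached that level, CAPG being the highest at a mean of 71.5 FPKM. Over the 81 genes, 4 higher and 3 lower had an unadjusted p under 0.05, beside 212 higher and 280 lower (4.38%) of all tested genes, and 0 passed after adjustment. PFN4, counted among the 3 lower, passed the filter only through its si-NC values. With the replicate number as a block, 21 of the 81 had an unadjusted p under 0.05, beside 1893 of all tested genes.

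**Figure D5:**
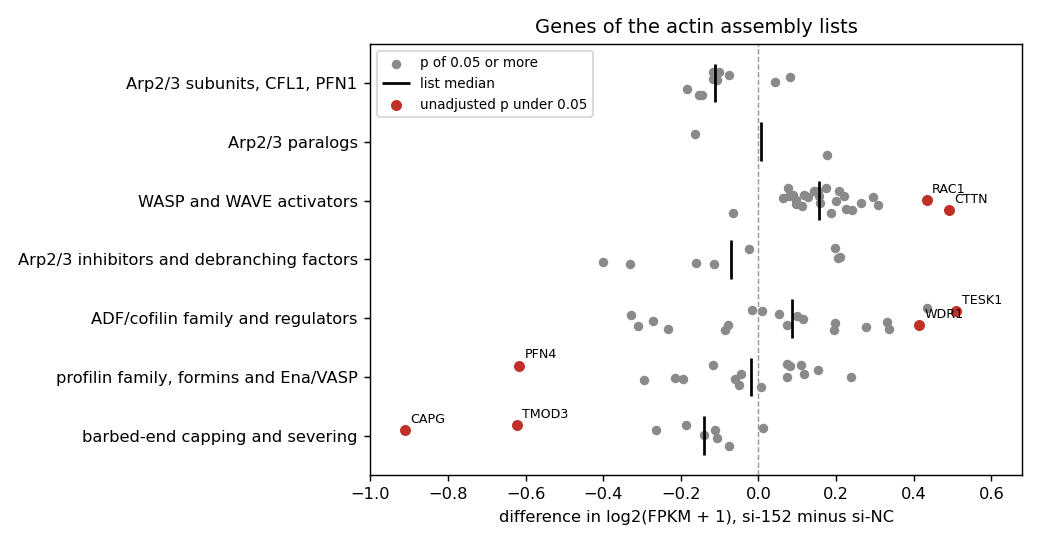
Difference in log2(FPKM + 1), si-152 minus si-NC, for the 10 genes and the genes of 6 actin assembly lists, 1 point per tested gene, with the median of each list as a black bar. Red points have an unadjusted limma p under 0.05; none of the 10 genes is red, and CAPG lies lowest at -0.91.

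The profile of the complex over the 4 libraries was low on average in si-152 replicate 1, although ACTR2 and ACTR3 were lowest in si-NC replicate 2. Centred on each gene's mean, the mean of the 8 subunits was 0.05 in each si-NC library, -0.15 in si-152 replicate 1 and 0.05 in si-152 replicate 2. Within si-NC the members went in opposite directions from replicate 1 to replicate 2, with ARPC3 at 0.35 and ACTR3 at -0.45. Of 5557 genes with a mean of at least 10 FPKM, those with the smallest root mean square difference from this profile over the 4 libraries were RPF2 (0.00725), UXS1 (0.00857), GPRC5C (0.0101), GLMP (0.0108) and CPE (0.0109). The profile has 4 unscaled values and was matched against many candidates, so closeness to it is not evidence of shared behaviour.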

How the data were processed

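HCT116 RNA was sequenced in 4 libraries, 2 si-NC and 2 si-152. Each library has its own table of gene symbols and values, deposited by the authors and read here as FPKM because of its decimals, zeros and unequal sums. No source used here names the unit. The submitters' processing notes name Trimmomatic, TopHat, HISAT2, HTSeq, DESeq and the build GRCh38, without roles. Date-like symbols numbered 28, and 2 symbols occurred again.

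Values were not rescaled. With a pseudocount of 1, log2(FPKM + 1) was fitted in R 4.3.3 using limma 3.58.1 (trended prior variance, no covariate). Genes reaching 1 FPKM in 2 or more libraries were kept, and p-values were adjusted by Benjamini-Hochberg over all 11222. Fold changes on this scale understate changes of low genes. The design named a count test should counts be found, and none were. Depth is unknown, so no counting error is given. Shares were tested by exact two-sided permutation. The fit was tested on simulated data.

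Transcript lengths, coordinates and overlaps came from GENCODE v29, with near-identical stretches found by alignment with a 48-base seed, and promoters from RefSeq (GRCh38.p14). Other steps used Python 3.11.15 with pandas 2.3.3, scipy 1.17.1 and numpy 2.4.6. The genes named are the 10 genes, and from each list the most abundant gene, the genes with an unadjusted p under 0.05, the paralogs in the shares, and the largest difference in each direction. CAPZB and the ratio of CAPG to it were added after their values were seen. The genes and lists were chosen with earlier results of these data known. Alternatives changed the pseudocount, filter, pairing, scaling, variance model, handling of zeros and libraries used.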

Additional observations from a re-analysis of the deposited data

How the results depend on the processing

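No member had an unadjusted p under 0.05 under any alternative that kept all 4 libraries. With 2 libraries per group, directions rest on single libraries: leaving out each in turn gave log2 differences of -0.19 to -0.04 for ARPC1A, -0.36 to -0.01 for ARPC1B, -0.29 to 0.0018 for ARPC2, -0.38 to 0.077 for ARPC3, -0.24 to 0.090 for ARPC4, -0.24 to 0.038 for ARPC5, -0.32 to 0.11 for ACTR2, -0.14 to 0.31 for ACTR3, -0.079 to 0.16 for CFL1 and -0.33 to 0.092 for PFN1. The subunit median ranged from -0.24 to 0.02 and the median of all tested genes from -0.04 to 0.07. The share differences, in percentage points, ranged from -2.69 to 0.529 for ARPC1B, 0.321 to 1.77 for ARPC5, -5.2 to 2.01 for ACTR3, 2.51 to 6.21 for CFL1 and -2.4 to 1.14 for PFN1. Under quantile normalization PFN1 reversed to 0.023, and the cause was not tested.

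The number of all tested genes with an unadjusted p under 0.05 was 492, 796 without the filter and 310 to 724 leaving out a library. Adjusted calls were 2, 1 with a pseudocount of 0.1, without the filter, with size factors, with quantile normalization or without the trend, 0 with at least 1 FPKM in every library or with zeros left out, and 45 to 78 leaving out a library. The replicate number as a block gave 1893 unadjusted and 78 adjusted calls, and CAPG an adjusted limma p of 0.014. Leaving out each library in turn, the CAPG difference ranged from -1.10 to -0.72 and that of TMOD3 from -0.94 to -0.30. Deviations of same-numbered libraries correlated at 0.52 across genes, but the labels give the pairs only a number in common. Leaving out a library, the difference ranged from 0.40 to 0.58 for CTTN and from 0.43 to 0.44 for RAC1. It ranged from 0.40 to 0.61 for TESK1, from 0.33 to 0.50 for WDR1 and from -0.89 to -0.35 for PFN4. Over the alternatives with all 4 libraries the unadjusted limma p reached 0.065 for RAC1, 0.067 for WDR1 and 0.087 for TMOD3. For CAPG it was at most 0.0051 in any of these. The depth of the libraries is unknown, so its limits could not be given.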
